A study of Mus musculus with 14 samples.

Results

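The genes of the cytosolic ribosomal proteins were followed through RNA sequencing of mouse bone marrow cells treated with PBS or with interleukin-1β (IL-1β). Members were chosen by symbol, as every protein-coding gene named Rpl or Rps followed by a number, without the Rps6k kinases, together with Rplp0, Rplp1, Rplp2 and Rpsa. This gave 84 of the 55487 genes counted, 52 of the large and 32 of the small subunit. Of these, 77 are the standard ribosomal proteins and 7 are paralogs (Rpl3l, Rpl7l1, Rpl10l, Rpl22l1, Rpl36al, Rpl39l and Rps27l). Ribosomal proteins are made in matched amounts and assembled on ribosomal RNA in the nucleolus, and their mRNAs are among the most abundant of a dividing cell. Most of these mRNAs begin with a terminal oligopyrimidine (TOP) tract, through which mTOR and Larp1 set their translation, while Myc and RNA polymerase I set much of the supply of ribosome parts. In blood-forming tissue, loss of a single copy of several of these genes gives Diamond-Blackfan anemia or the anemia of the 5q- syndrome, with activation of p53.

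The blood progenitors carried a heterozygous Jak2V617F allele (Jak2VF/+) switched on through Mx1Cre, a Cre under an interferon-inducible promoter that was induced with pI-pC and is not limited to blood cells. Their marrow had been transplanted into lethally irradiated C57BL/6 recipients, in which some host cells can persist, and the recipients received PBS or 0.5 µg IL-1β (the unit is that of the study's text) by intraperitoneal injection, 3 doses a week for 16 weeks. From these mice LSK cells (Lin-Sca1+c-kit+, enriched in stem and multipotent cells) and LK cells (Lin-c-kit+, mostly committed progenitors) were sorted, with 3 PBS and 2 IL-1β libraries of each. The mesenchymal stromal cells (MSC) came from wild-type C57BL/6 bone marrow, were cultured for 21 days and were treated with PBS (2 libraries) or with 5 ng/ml IL-1β (2 libraries) for 72 hours. All LSK and LK groups, the PBS controls included, shared the Jak2 allele, the pI-pC induction and the transplant, so no group shows IL-1β in wild-type progenitors. The labels do not say whether the libraries of a group came from separate animals or cultures, so the p-values measure the spread between these samples, which may be technical. Each library is bulk RNA, in which fewer cells of a type and less RNA per cell cannot be told apart.

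LSK libraries held 12172400, 13241793 and 16271408 counted read pairs with PBS against 8641124 and 4393233 with IL-1β. LK libraries held 12804883, 18544346 and 13992210 with PBS against 7652483 and 6367352 with IL-1β. MSC libraries held 5834909 and 13155033 with PBS against 30871055 and 11681794 with IL-1β. The LSK and LK libraries with IL-1β were thus all shallower than those with PBS, so depth and treatment cannot be told apart there, and in CPM (counts divided by the TMM-adjusted size of the library) every value below is relative to its own library. Only read pairs that mapped to 1 place and 1 gene were counted, and ribosomal protein genes have many processed pseudogenes with nearly the same sequence. The annotation holds 24 pseudogenes named after Rpl31, 15 after Rpl21 and 11 after Rpl17. Their levels, and those of genes with shared exons, are therefore uncertain. Exons of another gene on the same strand covered 47.0% of Rpl24, 29.4% of Rpl13a, 24.5% of Rpl36al and 20.6% of Rps10. The lowest levels per kilobase among the genes of standard ribosomal proteins were those of Rpl24, Rps10 and Rpl13a in all 3 populations.

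One LSK library stood apart in its ribosomal protein genes. Over the 76 standard members compared, the SD of the log2 ratio between LSK PBS libraries 1 and 3 was 0.28. It was 0.86 between PBS libraries 2 and 1 and 0.92 between PBS libraries 2 and 3. Against the 2 IL-1β libraries, PBS library 2 gave an SD of 0.39 and 0.48, and the IL-1β libraries gave 0.23 between them. In the ratios among members, PBS library 2 was thus nearer to both IL-1β libraries than to the other PBS libraries. Over 10415 genes PBS library 2 also stood apart from the other PBS libraries, at an SD of 0.76 and 0.78 where those 2 gave 0.43 between them, but it was no nearer to the IL-1β libraries (0.80 and 0.94). Members with wide gaps included Rpl31, Rpl17 and Rpl9 on the low side and Rps3, Rps9 and Rps20 on the high side. Rps9 stood at 1298 CPM in PBS library 1, 4155 in library 2 and 1899.9 in library 3, against 3151 and 4210.2 with IL-1β. Rps3, a small subunit protein at the mRNA entry, stood at 1342, 4248 and 2394 CPM with PBS against 3086 and 4334 with IL-1β. For both genes PBS library 2 lay beside the IL-1β libraries and the treatments overlapped. Among LK libraries the SD ran from 0.06 to 0.25 and among MSC libraries from 0.15 to 0.20. Counts of called members, medians and list results of LSK cells are given with and without PBS library 2. So are values of named members that moved by over 1.5 times. That library was picked out by the ratios among these same members, so fits without it are no independent test of them. Such fits show only how far the values rested on that library. The cause of its difference was not tested.

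The share of all counted read pairs that fell on the 84 members was first compared between treatments. In LSK cells it was 6.20%, 7.87% and 9.17% with PBS against 7.55% and 10.3% with IL-1β. The treatments overlapped (7.75% ± 1.49, SD, n = 3, against 8.94% ± 1.96, n = 2; exact permutation test, two-sided, p = 0.6), also without PBS library 2 (7.69% ± 2.10, n = 2). In LK cells the share was 9.19%, 8.41% and 9.59% with PBS against 8.03% and 7.85% with IL-1β. Both IL-1β libraries lay below all PBS libraries (9.06% ± 0.599, n = 3, against 7.94% ± 0.123, n = 2), and the exact permutation p of 0.2 is the smallest that 3 against 2 libraries allow. In MSC it was 4.35% and 5.25% with PBS against 3.28% and 3.43% with IL-1β. Again the treatments did not overlap (4.80% ± 0.633, n = 2, against 3.36% ± 0.111, n = 2), with an exact permutation p of 0.333, the smallest for 2 against 2. None of the 3 designs can reach 0.05 in this test. Within each population the means of both subunits went the same way, although in LSK cells the treatments overlapped for both. The large subunit mean went from 4.15% to 4.78% in LSK cells, from 5.17% to 4.52% in LK cells and from 2.79% to 1.97% in MSC. The small subunit mean went from 3.60% to 4.16%, from 3.89% to 3.42% and from 2.01% to 1.39%. The widest 95% Wilson interval of such a share was 0.0285 percentage points to either side, which covers counting error only. The 300 annotated ribosomal protein pseudogenes together took 0.0194% ± 0.0095 of LSK counts with PBS and 0.0162% ± 0.0034 with IL-1β, and the treatments overlapped. They took 0.0251% ± 0.00139 and 0.0198% ± 0.00105 in LK cells and 0.0159% ± 0.000142 and 0.00798% ± 2.59e-05 in MSC, lower in both IL-1β libraries of each.

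**Figure D1:**
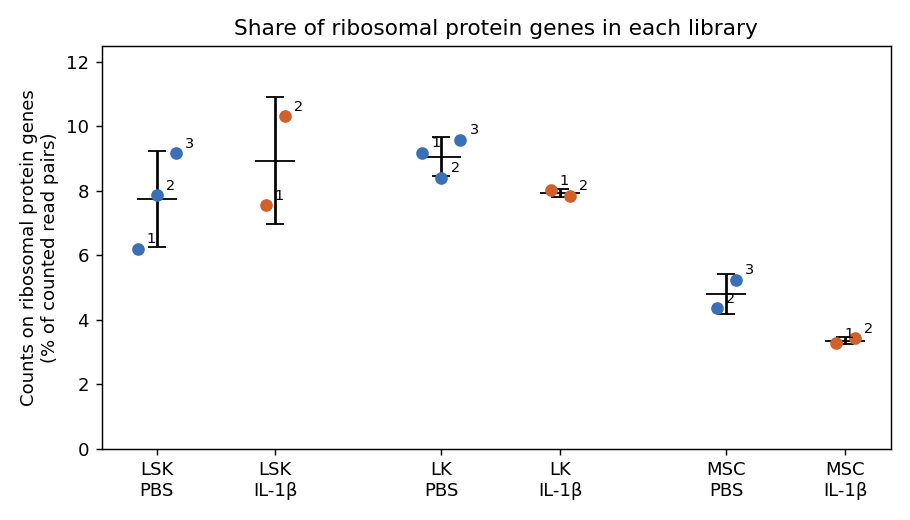
Percent of all counted read pairs on the 84 ribosomal protein genes, 1 point per library, with the mean and SD of each group of LSK, LK and MSC libraries. The IL-1β libraries lie below the PBS libraries in LK cells (8.03% and 7.85% against 8.41% to 9.59%) and in MSC (3.28% and 3.43% against 4.35% and 5.25%), and the treatments overlap in LSK cells.

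Levels among the members spread widely. Per kilobase of merged exons, the highest mean levels in LSK cells were those of Rps3a1 (3649 ± 1357 CPM per kb, SD over 5 libraries), Rplp1 (2865 ± 931) and Rps2 (2116 ± 767). In LK cells the same genes led, with Rplp1 at 3723 ± 318, Rps3a1 at 2221 ± 191 and Rps2 at 1883 ± 184 CPM per kb. MSC libraries had Rplp1 at 2456 ± 961, Rps3a1 at 898 ± 214 and Rps15 at 868 ± 230.1 CPM per kb. In LSK cells neighbours in this order differed by less than their SD, as did Rps3a1 and Rps15 in MSC. Rplp1, one of the acidic P proteins of the stalk that recruits elongation factors, stood above the rest by more than its spread in LK cells. At the low end, Rpl24 was at 1.62 ± 1.42, 1.16 ± 0.810 and 0.394 ± 0.117 CPM per kb in LSK, LK and MSC libraries. Rps10 was at 3.45 ± 1.62, 4.99 ± 2.14 and 1.61 ± 0.348 CPM per kb. These are among the genes with shared exons, where read pairs on the shared part are not counted. Gene length, which ran from 383 bases for Rpl36 to 6270 for Rps15a, counts every annotated exon and lowers this level for genes with long alternative exons. Rpl10l, a testis paralog, had 0 counts in every library and Rpl3l, the form of striated muscle, at most 4. Rpl39l had 0 counts in all LSK and LK libraries and could be tested in MSC. Rpl24 had 1 to 51 counts and was tested in LSK and LK cells. With these left out, 81 of the 84 members passed edgeR's filter on low counts in each comparison.

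In LSK cells, which address whether IL-1β acts on the stem cell fraction, no single ribosomal protein gene passed the test, although most leaned upward. Of 81 members tested, 64 had a positive and 17 a negative log2 fold change, with a median of 0.35 against -0.06 over all 13132 genes tested. The medians of the large (0.34) and small (0.33) subunits were alike. The members did not move as a block, since 17 of them leaned the other way. Expression was tested with the quasi-likelihood test of edgeR, with p adjusted over all genes after Benjamini and Hochberg, and a gene was called where that p fell under 0.05 with a log2 fold change over 0.5 or under -0.5. By this rule 0 members were called higher, against 0.32% of all genes, and 0 lower, against 0.312%, so neither count stands out from the background. Before adjustment 4 members were higher and 0 lower at p under 0.05, against 8.01% and 10.5% of all genes, and DESeq2's Wald test called 1 higher and 0 lower, against 3.18% and 3.72%. PBS and IL-1β libraries were apart, without overlap, for 8 members, each higher with IL-1β (Rpl4, Rpl8, Rpl36, Rpl36a, Rpl36al, Rpl41, Rplp1 and Rps15), a smaller share than the 18.2% of all genes that were higher and apart. In the other direction it was 0 members, against 21.4% of all genes.

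The highest members in LSK cells included a paralog and the shortest protein of the ribosome. Rpl36al (ENSMUSG00000049751, chr12:69182731-69184083 of GRCm38), a paralog of Rpl36a with 7 to 89 counts over all libraries, stood at 2.41, 2.04 and 3.04 CPM with PBS against 5.48 and 8.43 with IL-1β. Rpl41, that shortest protein, stood at 366, 756 and 873 CPM with PBS against 1042 and 1545 with IL-1β. Rpl36a stood at 290.0, 469.8 and 487 CPM with PBS against 661 and 834 with IL-1β. In these genes both IL-1β libraries lay above all PBS libraries, and PBS library 1 was the lowest or near it. Their log2 fold changes were 1.46 ± 0.65 (SE) for Rpl36al, 0.96 ± 0.37 for Rpl41 and 0.85 ± 0.29 for Rpl36a, with edgeR adjusted p of 0.265, 0.221 and 0.186. Rpl8, a core protein of the large subunit beside the peptidyl transferase centre, stood at 1471, 2110.4 and 1962 CPM with PBS against 2685 and 3589 with IL-1β (0.76 ± 0.29, edgeR adjusted p = 0.214). Rpl38, known for its part in the translation of Hox mRNAs, overlapped, at 94.9, 137 and 222 CPM with PBS against 215 and 302 with IL-1β (0.77 ± 0.35, edgeR adjusted p = 0.275).

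Among the lowest members were some that set PBS library 2 apart. Rpl31 (ENSMUSG00000073702, chr1:39367842-39371911), which lies at the rim of the exit tunnel for the new peptide, stood at 311, 90.9 and 681 CPM with PBS against 119.9 and 207 with IL-1β. Rpl17, also at the exit tunnel, stood at 347, 183 and 765 CPM with PBS against 174 and 308 with IL-1β. In each, PBS libraries 1 and 3 were above both IL-1β libraries while PBS library 2 lay low, below both for Rpl31 and between them for Rpl17. The log2 fold changes were -1.14 ± 0.69 for Rpl31 and -0.84 ± 0.53 for Rpl17 (edgeR adjusted p = 0.401 and 0.415). Rpl9 had the same order, with 410.3, 217 and 859.8 CPM with PBS against 221 and 458 with IL-1β, although the treatments overlapped there also through PBS library 1 (-0.55 ± 0.53, edgeR adjusted p = 0.604). Rps24, a Diamond-Blackfan gene, stood at 528, 783 and 867 CPM with PBS against 507 and 612 with IL-1β, overlapping through PBS library 1 (-0.38 ± 0.29, edgeR adjusted p = 0.512).

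**Figure D2:**
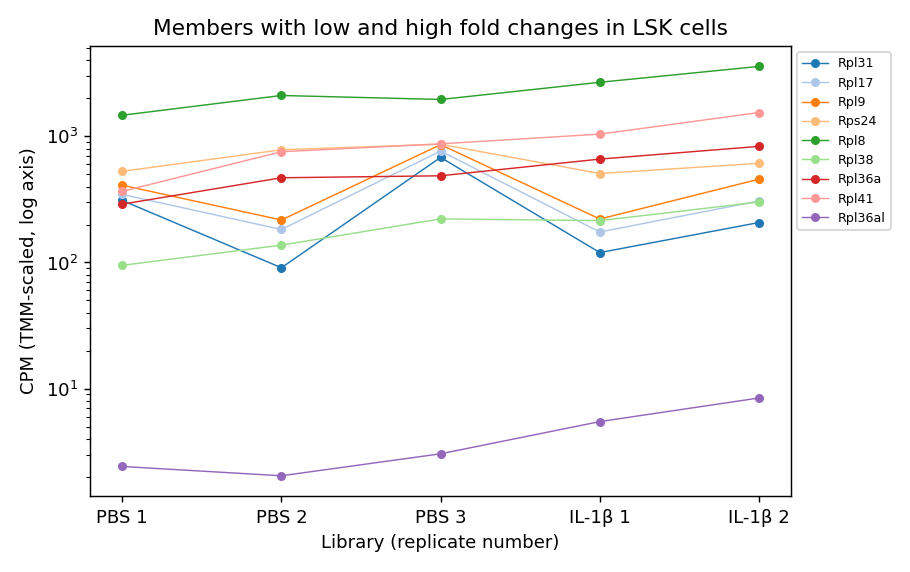
CPM on a log axis of members with the highest and the lowest log2 fold changes in LSK cells, 1 point per library. For Rpl31 and Rpl17 PBS library 2 lies far below the other PBS libraries (90.9 CPM against 311 and 681 for Rpl31), while for Rpl41, Rpl36a, Rpl8 and Rpl36al both IL-1β libraries lie above all PBS libraries.

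Without LSK PBS library 2, which was picked out by its member values, the pattern among members changed more than their median. The typical biological coefficient of variation went from 0.377 to 0.263. Of the 81 members, 1 was called higher, against 2.21% of all 12675 genes tested. It was Rps20 (ENSMUSG00000028234, chr4:3831334-3835665), a protein of the small subunit head and among the members with wide gaps in that library. Rps20 stood at 661, 1885 and 876 CPM in PBS libraries 1, 2 and 3 and at 1611 and 2127 with IL-1β. PBS library 2 was thus between the IL-1β libraries and the remaining PBS libraries below both. Its log2 fold change was 1.30 ± 0.27 (edgeR adjusted p = 0.0492) without that library and 0.71 ± 0.42 (adjusted p = 0.389) with it. Rpl31 and Rpl17 then had log2 fold changes of -1.58 ± 0.42 and -1.18 ± 0.42, still short of the threshold (edgeR adjusted p = 0.0763 and 0.134). Before adjustment 19 members were higher and 3 lower at p under 0.05, which is 23.5% and 3.7% of them against 13.9% and 13.2% of all genes. The treatments were apart for 23 members higher, a like share to the 29.2% of all genes. They were apart for 4 lower, under the 31.8% of all genes. The median of the members was 0.32, with 60 positive and 21 negative. Of the members named above, Rpl9 went from -0.55 to -0.88, Rps10 turned from -0.04 to 0.58 and Rpl24, at few counts, from -0.26 to 1.08.

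Sorted by role, the stalk proteins had positive values in LSK cells and the anemia genes lay on both sides of 0. Of the stalk proteins, Rplp0 stood at 1595, 1372 and 2034 CPM with PBS against 1648 and 2261 with IL-1β (log2 fold change 0.23), Rplp1 at 932, 1254 and 1318 against 1458 and 2185 (0.64) and Rplp2 at 490.3, 1129.5 and 755 against 1101 and 1368 (0.64). Rplp1 was apart between treatments and the others overlapped. Rpsa, also known as the laminin receptor, had a log2 fold change of 0.30 and overlapped. Rpl5 and Rpl11, which bind Mdm2 together with the 5S rRNA when ribosome assembly fails, differed, with 887, 756 and 1772 CPM with PBS against 792 and 1391 for Rpl5 (-0.06) and 609, 1336 and 1036 against 1238 and 1834 for Rpl11 (0.63). Both overlapped between treatments. Rpl5 and Rpl11 are also Diamond-Blackfan genes, and others of that group included values from -0.38 for Rps24 and -0.32 for Rps19, the gene most often mutated, through -0.14 for Rps7 and -0.04 for Rps10 to 0.48 for Rps26 and 0.52 for Rpl35a. Rps14, the gene of the 5q- syndrome, stood at 748, 1133 and 1829.7 CPM with PBS against 1095 and 2021 with IL-1β, with overlap (0.33). Paralogs and their standard partners were Rpl22l1 at 0.42 and Rpl22 at 0.14, Rps27l at 0.57 and Rps27 at -0.31, and Rpl7l1 at 0.16 and Rpl7 at 0.21 on the log2 scale. Several of these values rested on PBS library 2. Without it Rplp0 was at 0.13, Rplp2 at 1.01, Rpsa at 0.47, Rpl5 at -0.26, Rps7 at -0.30 and Rpl35a at 0.91. Of the paralog pairs, Rpl22l1 was then at 0.94, Rps27l at 0.25, Rps27 at -0.64 and Rpl7l1 at 0.10.

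Gene lists tied to the ribosomal proteins were read beside them in LSK cells. Mycn, a Myc family factor of stem cells, was called lower among 8 upstream regulators (log2 fold change -1.95, edgeR adjusted p = 0.0207). In the other lists edgeR called 0 genes. Medians were 0.49 for the 3 ribosomal proteins with other names (Fau and Rack1 among them), 0.27 for 14 other TOP mRNAs, 0.08 for 6 snoRNA host genes and 0.62 for 6 chaperones that carry ribosomal proteins. They were 0.39 for 12 genes of RNA polymerase I and the nucleolus and -0.30 for 12 p53 targets. At an unadjusted p under 0.05 the counts higher were 1, 3, 0, 1, 3 and 1 in the order of these lists, with 1 p53 target lower, and DESeq2 called 1 TOP mRNA, 1 chaperone and 1 p53 target higher and 1 p53 target lower. The extremes included Rack1 (0.24), Npm1 (0.95) and Tpt1 (-0.13), Snhg8 (0.36) and Snhg6 (-0.21), Bccip (0.93) and Pdcd2l (0.20), Ncl (0.88) and Polr1a (-0.18), and Pmaip1 (2.05) and Eda2r (-2.45). Of 77 mitochondrial ribosomal protein genes tested, 72 were positive with a median of 0.56. None of them was called by edgeR (22 higher and 0 lower at an unadjusted p under 0.05, 8 higher by DESeq2), and the extremes were Mrpl51 (1.43) and Mrpl42 (-0.17). Without PBS library 2 edgeR called higher 1 TOP mRNA, 1 chaperone, 1 nucleolar gene (Fbl at 1.28), 2 p53 targets (Pmaip1 at 2.79 among them) and 6 mitochondrial ribosomal protein genes, and Mycn was still called lower (-1.97). The medians were then 0.41, 0.24, 0.14, 0.89, 0.46, -0.35 and, for the mitochondrial genes, 0.60, in the order given. That of the upstream regulators was -0.16 with PBS library 2 and -0.35 without it. Of the extremes, Tpt1 went to -0.28, Snhg6 to -0.04, Pdcd2l to 0.41, Eda2r to -0.71 and Mrpl42 to -0.63.

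Markers of other cells moved in the same LSK libraries. Of 6 granulocyte-monocyte progenitor genes, 4 were called higher, and their summed level was 2401, 2231 and 3225 CPM with PBS against 10311 and 12233 with IL-1β, with Mpo the most abundant. Of 9 stem cell genes, 3 were called lower (Flt3 and Hlf among them), with sums of 1869, 1501 and 1943 CPM against 958 and 847 and Cd34 the most abundant. Of 2 lymphoid genes tested, Dntt was called lower, with list sums of 117, 358 and 102 CPM against 3.53 and 7.93. The remaining marker lists had 0 called by edgeR, namely neutrophil (5 tested, 4 higher at an unadjusted p under 0.05, 3 by DESeq2), erythroid (8 tested, 2 lower, 1 by DESeq2), megakaryocyte (3 tested, 1 higher and 1 lower, the same counts by DESeq2), mesenchymal (2 tested, 1 lower, 0 by DESeq2; Lepr at 0) and macrophage genes (7 tested, 1 lower, 1 by DESeq2). Their sums with PBS and then IL-1β were 7.97, 2.11 and 1.29 against 67.5 and 15.4 CPM for neutrophil (Ngp most abundant), 718, 705 and 726 against 289 and 684 for erythroid (Car2), 399, 502 and 481 against 692 and 540.2 for megakaryocyte (Itga2b), 80.5, 56.5 and 75.3 against 52.8 and 41.2 for mesenchymal (Pdgfrb) and 349.9, 327 and 381 against 262 and 235 CPM for macrophage genes (Ptprc). PBS library 2 was the highest in the lymphoid sum. Without it 6 granulocyte-monocyte progenitor genes were called higher, and 5 stem cell genes, 1 lymphoid gene (Dntt) and 1 macrophage gene (Csf1r) lower. The part of these cell types in the ribosomal protein values was not tested.

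In LK cells, which address the committed progenitors, nearly all ribosomal protein genes had small negative values with IL-1β, and none was called. Of 81 members tested, 75 were negative and 6 positive, with a median log2 fold change of -0.17 against -0.03 over 12835 genes tested. Large (-0.16) and small (-0.18) subunit medians were alike, and the libraries varied less than in LSK cells (biological coefficient of variation 0.183). With the fold threshold 0 members were called higher, against 6.77% of all genes, and 0 lower, against 2.57%. The test gave 1 member higher and 18 lower at an unadjusted p under 0.05. That is 1.23% and 22.2% of the members, against 14% and 10.8% of all genes. DESeq2 called 0 members in either direction, against 8.48% and 3.49%. Without the fold threshold 3 members passed as lower, against 3.09% of all genes, which is a like share. Both IL-1β libraries were below every PBS library for 30 members, a larger share than the 22.2% of all genes, and above every one for 2 (Rpl36al and Rpl7l1), against 23.5%.

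The 3 members that passed without the fold threshold were as follows. Rpl13a (ENSMUSG00000074129, chr7:45125558-45128761), which leaves the ribosome to repress inflammatory mRNAs in interferon-treated myeloid cells, stood at 87.7, 90.7 and 89.9 CPM with PBS against 66.0 and 61.9 with IL-1β. Rps24 (ENSMUSG00000025290, chr14:24487125-24496959) stood at 1039, 942 and 966 CPM with PBS against 729 and 719.8 with IL-1β. Rpl17 stood at 863, 828 and 831 CPM with PBS against 672 and 634 with IL-1β. In all of them both IL-1β libraries were below all PBS libraries with little spread on either side. The log2 fold changes were -0.48 ± 0.10, -0.44 ± 0.10 and -0.37 ± 0.10 (edgeR adjusted p = 0.0216, 0.0301 and 0.0491). Rpl13a shares exons with another gene, which had 0 counts.

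The ends of the LK order were genes with few counts. Rps10 (ENSMUSG00000052146, chr17:27630418-27636669), at 16 to 388 counts over all libraries, stood at 11.5, 19.9 and 8.08 CPM with PBS against 7.95 and 10.1 with IL-1β (log2 fold change -0.56 ± 0.39, edgeR adjusted p = 0.428). The treatments overlapped. Rpl36al stood at 3.02, 4.58 and 3.00 CPM with PBS against 7.15 and 6.74 with IL-1β (0.97 ± 0.33, edgeR adjusted p = 0.111), apart as it was in LSK cells. Next at the low end were Rpl13a, Rps24 and Rpl17, given above. Rpl32 followed them, at 1024, 912 and 1005 CPM against 784 and 756 (-0.35, edgeR adjusted p = 0.0717). At the high end were Rpl7l1, at 214, 183 and 204 CPM against 217 and 215 (0.11), Rpl10, a protein added last to the large subunit (0.02), and Rps20, Rps6 and Rpl4 (0.01 each).

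**Figure D3:**
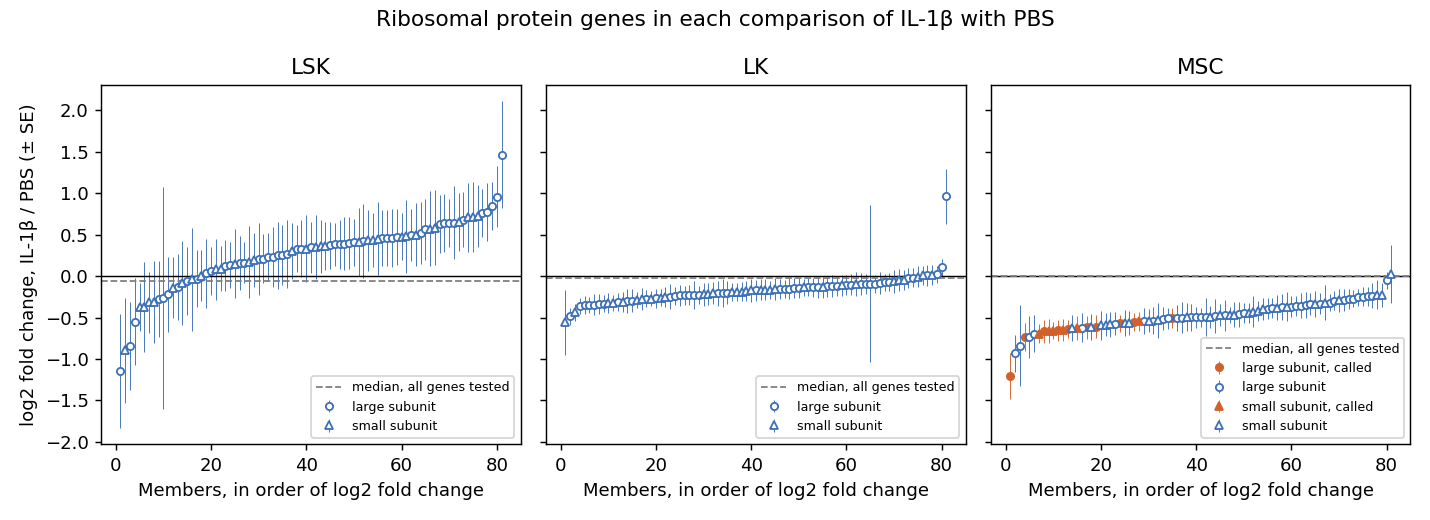
Log2 fold change of IL-1β over PBS with its SE for each tested member in LSK cells, LK cells and MSC, in order of size, with the median of all genes tested as a dashed line and called members filled. In LSK cells 64 of 81 members lie above 0, in LK cells 75 of 81 lie below, and in MSC 80 of 81 lie below with 16 called.

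By role, the stalk proteins lay near the middle in LK cells. Rplp0 stood at 2892, 2409 and 2721 CPM with PBS against 2539 and 2431 with IL-1β (log2 fold change -0.11), and Rplp1 at 2138, 1769 and 1813 against 1813 and 1756 (-0.10), both overlapping. Rplp2 had -0.12 and Rpsa -0.13. Rpl5 had -0.29 (edgeR adjusted p = 0.217) and Rpl11 -0.12. The Diamond-Blackfan genes given here were negative, from -0.56 for Rps10 and -0.44 for Rps24 through -0.28 for Rps19, -0.22 for Rps26 and -0.20 for Rps7 to -0.07 for Rpl35a. Rps14 stood at 1348, 1136 and 1459 CPM with PBS against 1202 and 1155 with IL-1β, with overlap (-0.16). Rpl31, the lowest member in LSK cells, stood at 705, 609 and 770.1 CPM with PBS against 566 and 532 with IL-1β, apart. Among paralogs, Rpl22l1 was at -0.09 beside Rpl22 at -0.27, and Rps27l at -0.21 beside Rps27 at -0.32.

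Among the linked lists in LK cells, the p53 targets held most of the called genes. Of 12, edgeR called 4 lower and 1 higher: Cdkn1a, the cell cycle inhibitor (log2 fold change -1.29, adjusted p = 0.0215), Phlda3 (-2.06, 0.0268), Zmat3 (-1.15, 0.0179) and Sesn2 (-0.81, 0.0453) fell, and Pmaip1, which encodes the death factor Noxa (2.78, 0.00305), rose. The list's median was -0.60. Among 6 snoRNA host genes Snhg8 was called lower (-0.58, edgeR adjusted p = 0.0251), with a median of -0.58. Of 77 mitochondrial ribosomal protein genes, Mrpl52 (-0.71) and Mrps11 (-0.58) were called lower (edgeR adjusted p = 0.0146 and 0.029), with 24 positive, 53 negative and a median of -0.06. The other lists had 0 called by edgeR and by DESeq2, with medians of -0.09 for proteins with other names, -0.10 for TOP mRNAs, -0.06 for chaperones, -0.17 for RNA polymerase I and nucleolar genes and -0.04 for upstream regulators. At an unadjusted p under 0.05 they held 0, 0 and 0 genes in the first 3, then 2 lower, and 1 higher and 1 lower. The extremes included Rack1 (-0.17), Eif4b (-0.24) and Pabpc1 (0.14), Grwd1 (-0.16) and Pdcd2l (-0.01), Nop56 (-0.38) and Ncl (0.06), and Mycn (-1.12) and Larp4 (0.28).

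Lineage markers moved strongly in the same LK libraries, in which most members had negative values. All 6 granulocyte-monocyte progenitor genes were called higher, with sums of 4508, 5691 and 9765 CPM with PBS against 21806 and 18729 with IL-1β and Mpo the most abundant. Of 8 erythroid genes 5 were called lower (Gata1, Klf1, Epor, Car1 and Car2), with sums of 4986, 4178 and 3835 CPM against 2186.5 and 2566, Car2 the most abundant and no gene at 0. Of 6 neutrophil genes S100a8 and S100a9 were called higher, with sums of 15.3, 3.50 and 5.15 CPM against 353 and 150.5 and S100a8 the most abundant. Of 9 stem cell genes Flt3 was called lower (sums 459.9, 474 and 634 against 521 and 438 CPM, Kit most abundant). Of 3 megakaryocyte genes tested Vwf was lower (sums 105, 101 and 143 against 219 and 110 CPM, Itga2b most abundant, Gp1bb at 0), Dntt was the 1 lymphoid gene tested and was lower (sums 3.97, 5.86 and 6.37 against 0.13 and 0.16 CPM, Cd3e and Rag1 at 0), and of 6 macrophage genes tested Ptprc was higher and Csf1r lower (sums 139.6, 154 and 214 against 183 and 151 CPM). Of 2 mesenchymal genes tested 0 were called by edgeR or DESeq2, also 0 at an unadjusted p under 0.05, with sums of 22.4, 21.1 and 28.0 against 29.5 and 15.4 CPM, Pdgfrb the most abundant and Pdgfra at 0. Their part in the ribosomal protein values was not tested.

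In MSC, which address whether IL-1β acts on stromal cells of the niche, nearly all ribosomal protein genes had negative values with IL-1β and some of them passed the test. Of 81 members tested, 80 were negative, with a median log2 fold change of -0.50 against 0.00 over 13239 genes. The median was -0.49 in both subunits. With edgeR 16 of the 81 members were called lower, a larger share than the 4.31% of all genes. None was called higher (0 at an unadjusted p under 0.05 and 0 by DESeq2), against 7.14% of all genes with edgeR and 7.52% with DESeq2. Before adjustment 60 were lower at p under 0.05, against 14.1% of all genes. The treatments were apart for 76 members lower and 0 higher, against 29.8% and 31.3% of all genes. The 5 not apart were Rpl7l1, Rps6, Rps9, Rps10 and Rps20. Without the fold threshold 18 passed, with Rpl23a and Rps27 added, against 4.58% of all genes.

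Members with the lowest p were of both subunits. Rps25 (ENSMUSG00000009927, chr9:44407139-44410427), a small subunit protein needed by some viral mRNAs for initiation, stood at 538 and 554 CPM with PBS against 349.9 and 342 with IL-1β. Rpl21 (ENSMUSG00000041453, chr5:146832890-146837032) stood at 589 and 624 against 385 and 394 CPM. Both IL-1β libraries were well below both PBS libraries, with narrow spread within each treatment. The log2 fold changes were -0.66 ± 0.10 (SE) for Rps25 and -0.64 ± 0.11 for Rpl21 (edgeR adjusted p = 0.0176 and 0.0202). Rpl28 (ENSMUSG00000030432, chr7:4792874-4795066) stood at 579.6 and 564 CPM with PBS against 391 and 379.6 with IL-1β (-0.57 ± 0.10, edgeR adjusted p = 0.0259). Rpl31 stood at 479 and 516 against 344 and 289 CPM (-0.65 ± 0.13, edgeR adjusted p = 0.0321). These too were apart. Others called included Rpl10a, Rpl12, Rpl23, Rpl35, Rpl36a, Rpl37, Rpl39l, Rps15, Rps16 and Rps28, and over all 16 the log2 fold change ran from -1.20 to -0.51 and the adjusted p from 0.0176 to 0.0465, close to the threshold.

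The largest falls in MSC included a paralog. Rpl39l (ENSMUSG00000039209, chr16:10170226-10174911), a paralog of the exit tunnel protein Rpl39 best known from testis, stood at 6.67 and 6.02 CPM with PBS against 2.95 and 2.47 with IL-1β (log2 fold change -1.20 ± 0.27, edgeR adjusted p = 0.0447). Rpl12 (ENSMUSG00000038900, chr2:32961559-32965345), at the base of the stalk, stood at 562 and 746 against 368 and 417 CPM (-0.74 ± 0.17, edgeR adjusted p = 0.0434). Both genes were apart between treatments. Rpl22l1, the paralog of Rpl22, had the next lowest value, at 68.2 and 102 against 40.5 and 50.1 CPM, and did not pass (-0.93 ± 0.22, edgeR adjusted p = 0.0521). Rpl36al stood at 1.17 and 1.43 against 0.754 and 0.706 CPM (-0.84 ± 0.49, adjusted p = 0.31), and Rplp1 at 1132 and 1929 against 909 and 932 (-0.73 ± 0.26, adjusted p = 0.129). The PBS libraries of Rplp1 differed more from each other than the lower of them did from IL-1β. At the other end were Rps10 at 2.67 and 4.59 against 3.97 and 3.62 CPM (0.02), Rpl7l1 at 113 and 103 against 102 and 107 (-0.05), Rps6, the substrate of S6 kinase, at 577 and 724 against 534 and 582 (-0.22), Rps20 at 436 and 569 against 387 and 474 (-0.22), and Rpl10 (-0.23). In the first 4 of these the treatments overlapped.

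**Figure D4:**
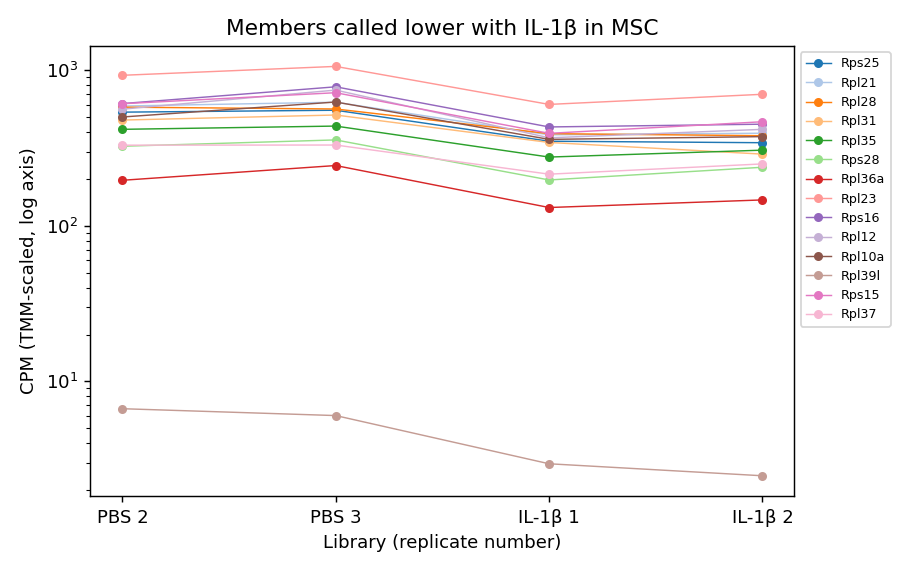
CPM on a log axis of ribosomal protein genes among those called lower with IL-1β in MSC, 1 point per library. In each gene both IL-1β libraries lie below both PBS libraries, as for Rps25 (349.9 and 342 against 538 and 554 CPM) and Rpl39l (2.95 and 2.47 against 6.67 and 6.02).

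Other members of known role had like values in MSC without passing. Rplp0 stood at 1244 and 1629 CPM with PBS against 1137 and 1125 with IL-1β (log2 fold change -0.35), Rplp2 at 451 and 699 against 326 and 387 (-0.69), and Rpsa at 862 and 1076 against 655 and 636 (-0.59). Rpl5 stood at 718 and 839.9 against 632 and 604 CPM (-0.33) and Rpl11 at 512 and 525 against 359.5 and 429 (-0.39). All of these were apart, and in all but Rpl11 the PBS libraries lay further from each other than the IL-1β libraries did. Of the other anemia genes, Rps14 stood at 821 and 1066 against 584 and 652 CPM (-0.61, edgeR adjusted p = 0.0607) and Rps19 at 345 and 402 against 273 and 277 (-0.44, adjusted p = 0.0655). Rps24 had -0.56, Rpl35a -0.48, Rps26 -0.43 and Rps7 -0.40. Of the paralog pairs, Rpl22 was at -0.58, Rpl39 at -0.51 and Rps27 at -0.47, beside Rps27l at -0.63. Rpl7 stood at 731 and 858 CPM with PBS against 617 and 618 with IL-1β, apart (-0.36, edgeR adjusted p = 0.115), while its paralog Rpl7l1 overlapped (-0.05).

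The MSC count rested on having 2 libraries in the IL-1β group. Without IL-1β library 1 or without IL-1β library 2, 0 of the 16 members were called (edgeR adjusted p from 0.273 to 0.533 and from 0.22 to 0.406), although all 16 were still negative, and the lone library is then assumed to vary like the PBS group. Of all genes 0 and 2 were called lower in these fits, so the loss was not particular to the members. Without PBS library 2 the count was 57, against 12.7% of all genes, and without PBS library 3 it was 14, against 8.46%, with 12 of the 16 kept and Rpl10a, Rpl36a and Rps16 among those lost. DESeq2 called 37 members lower, against 5.43% of all genes, and upper-quartile factors gave 35, against 6.28%, each with all 16 among them. No filter on low counts gave 28 with 15 of them, against 4.06%. Of all genes, edgeR called 945 higher against 570 lower, a split that became 817 against 831 under upper-quartile factors. The member median stayed between -0.61 and -0.34 over all alternatives, beside -0.06 to 0.06 for all genes.

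In the linked lists of MSC, the genes called by edgeR were lower as well. Among 8 upstream regulators, of which 7 were tested, Myc was called (log2 fold change -0.97 ± 0.15, adjusted p = 0.0171), with a list median of 0.14. Nop58 (-0.65, 0.0366) and Fbl (-0.55, 0.0341), which modify ribosomal RNA in the nucleolus, were called among 12 RNA polymerase I and nucleolar genes, with a median of -0.30. The nucleolar chaperone Npm1 (-0.59, 0.0309) and Nap1l1 (-0.57, 0.0431) were called among 14 TOP mRNAs, with a median of -0.15, lying above that of the members. Of 77 mitochondrial ribosomal protein genes 5 were called lower (Mrpl48, Mrpl57, Mrps12, Mrps14 and Mrps21, from -0.64 to -0.51), and 70 were negative with a median of -0.31. The remaining lists had 0 called by edgeR, with medians of -0.17 for proteins with other names, -0.27 for snoRNA hosts, -0.38 for chaperones and 0.02 for p53 targets. They held 0, 0, 3 lower, and 2 higher and 1 lower genes at an unadjusted p under 0.05, and DESeq2 called 1 p53 target in each direction. The extremes included Fau (-0.37), Snhg1 (-0.41) and Snhg12 (-0.11), Tsr2 (-0.46) and Heatr3 (0.31), and Phlda3 (-0.54) and Sesn2 (0.63).

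The MSC cultures held macrophage transcripts that moved with treatment. Of 7 macrophage genes 5 were called higher with IL-1β (Adgre1, Csf1r, Mrc1, Lyz2 and Cd14), with sums of 11474 and 7919.8 CPM with PBS against 26328 and 27319 with IL-1β, Lyz2 the most abundant at a mean of 13153 CPM and no gene at 0. Cd68, of the same list, went the other way, at 1520 and 1089 CPM with PBS against 1011 and 867 with IL-1β, apart (log2 fold change -0.47, unadjusted p = 0.046, edgeR adjusted p = 0.158). The 8 mesenchymal genes summed to 2879 and 1412 CPM with PBS against 3721 and 4248 with IL-1β, Col1a1 being the most abundant and none at 0. Of these 7 were tested and 0 called by edgeR (2 higher at an unadjusted p under 0.05, 1 by DESeq2), from Pdgfrb (-0.11) to Col3a1 (2.04). Macrophage and mesenchymal transcripts were thus both present in every library, and the ribosomal protein values are averages over such cells. Of 3 neutrophil genes tested Camp and Mmp8 were called higher (sums 2.83 and 2.26 against 16.9 and 17.1 CPM, Mmp8 most abundant, S100a9 and Ngp at 0), of 2 megakaryocyte genes Pf4 was higher (sums 51.0 and 82.4 against 119 and 127 CPM, Gp1bb at 0), of 4 stem cell genes Kit was lower (sums 105 and 118 against 131 and 131 CPM, Ly6a most abundant, Flt3 at 0), and the 1 lymphoid gene tested, Il7r, was lower (sums 293 and 275 against 166 and 158 CPM, with Dntt, Cd3e and Rag1 at 0). No granulocyte-monocyte progenitor gene passed the filter, and of the erythroid genes 1 was tested and 0 called (0 also at an unadjusted p under 0.05 and by DESeq2), with Hbb-bs among those at 0. The part of these cells in the ribosomal protein values was not tested.

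Starts of the genes were searched for the TOP tract that many ribosomal protein mRNAs share. RefSeq promoter sequences on GRCm38.p6 matched 64 of the 84 members. A TOP start was counted where a C at or within 5 bases of the annotated start was followed by at least 4 bases that were C or T on the transcript strand. This was found in 31 of 76 entries of members (40.8%), from 29 genes, against 6027 of all 32851 promoter entries (18.3%). It is a description of the letters in the window and not a mapped start. Members with and without it had like fold changes. As starts were not mapped, members without a match may still be TOP mRNAs, so this cannot show whether TOP mRNAs responded differently. In MSC the median log2 fold change was -0.50 for 29 members with a TOP start (4 called), -0.48 for 32 without (9 called) and -0.50 for 20 tested members that had no entry (3 called). In LSK cells the medians were 0.42, 0.34 and 0.27 (0.39, 0.33 and 0.26 without PBS library 2), and in LK cells -0.19, -0.17 and -0.16. Windows of 30 bases whose 11th base is the annotated start are shown for 4 members called lower in MSC, with the pyrimidine run in capitals, and for Rps25, which had the lowest p and no such run. Their places are chr2:32961702-32961731 (Rpl12, plus strand), chr7:4792955-4792984 (Rpl28, plus), chr1:39367841-39367870 (Rpl31, plus), chr2:39005112-39005141 (Rpl35, minus) and chr9:44407704-44407733 (Rps25, plus), each across the start of the transcript. Capitals begin at the C that opened the match, so C or T bases just before it are left in lower case. From that C the runs were 6, 10, 7 and 16 bases long in the first 4. Members with no entry included Rpl3, Rpl7, Rpl8, Rpl17, Rpl21, Rpl23a, Rpl29, Rpl30, Rpl32, Rpl36, Rplp1, Rps14, Rps20, Rps27a and Rps29.
Rpl12: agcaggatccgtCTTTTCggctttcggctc
Rpl28: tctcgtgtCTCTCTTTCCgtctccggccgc
Rpl31: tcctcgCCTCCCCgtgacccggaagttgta
Rpl35: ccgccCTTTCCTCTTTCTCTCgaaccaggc
Rps25: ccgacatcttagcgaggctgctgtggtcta

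LSK and LK cells treated with PBS were compared next, which addresses how the ribosomal protein genes differ between the stem cell and the progenitor fraction. Most members had negative values (LSK over LK), and a minority of them passed the test. Of 81 members tested, 70 were negative and 11 positive, with a median log2 fold change (LSK over LK) of -0.40 against 0.09 over 13839 genes. In 1 fit over all 10 libraries, without pairing, edgeR called 11 members lower, 13.6% of them against 12.4% of all genes. The shares were alike in this fit but not with the replicate number as a block, which called 24 lower, 29.6% against 12.9%. It called 0 members higher (0 at an unadjusted p under 0.05 and 0 by DESeq2), against 19.4% of all genes with edgeR and 19.8% with DESeq2. Before adjustment 26 were lower at p under 0.05, against 17.8% of all genes. The 11 were Rpl10, Rpl19, Rpl27, Rpl29, Rpl34, Rpl35, Rpl38, Rpl41, Rplp0, Rplp1 and Rps27l.

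Rps27l (ENSMUSG00000036781, chr9:66946086-66949516), a paralog of Rps27 and a p53 target, differed most. It stood at 41.3, 19.4 and 67.0 CPM in LSK and 137, 132 and 104 CPM in LK cells with PBS (log2 fold change -1.54 ± 0.35, edgeR adjusted p = 0.0056). Rplp1 (ENSMUSG00000007892, chr9:61913284-61914542) stood at 965, 1241 and 1313 against 2148, 1774 and 1819 CPM (-0.71 ± 0.20, adjusted p = 0.0175). In both genes every LSK library lay below every LK library. Rplp0 (ENSMUSG00000067274, chr5:115559467-115563727), the base of the stalk, stood at 1652, 1357 and 2025 against 2906, 2416 and 2731 CPM (-0.68 ± 0.20, edgeR adjusted p = 0.0209). Rpl41 stood at 379.5, 748 and 869 against 1389, 1108 and 1289 CPM (-0.92 ± 0.27, adjusted p = 0.0218), and Rpl10 at 941, 747 and 929 against 1417, 1305 and 1331 (-0.63 ± 0.19, adjusted p = 0.0257). These were apart as well. Rpl27 stood at 349, 177 and 499 against 766, 697 and 622 CPM (-1.02, adjusted p = 0.0259). Large negative values that did not pass were those of Rps25 (-1.07, edgeR adjusted p = 0.0657), Rpl17 (-0.96) and Rpl31 (-0.94), which were at -0.68, -0.59 and -0.48 without LSK PBS library 2. Rpl31 stood at 322, 89.9 and 678 CPM in LSK and 708, 611 and 773 in LK cells, with LSK library 3 inside the LK range. The highest included Rpl24 (0.54), Rps3a1 (0.51), Rps9 (0.42), Rps3 (0.41) and Rps20 (0.26). Rps6 was also among them, at 1561, 3366 and 1986 CPM in LSK and 1880, 1616 and 1939 in LK cells. Rps3a1 stood at 1943, 4761 and 2746 CPM in LSK and 2274, 1924 and 2425 in LK cells, where the populations overlapped and LSK library 2 was the highest.

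The count of 11 depended on the libraries and the design. The 24 called with the block held all 11. DESeq2 called 24, against 15.7% of all genes. Testing all genes without a filter called 38, against 9.90%. A block numbered within treatment, chosen after seeing the data, gave 27, against 13.3%. In these fits the members' share was thus the larger. Without LSK PBS library 2 the count was 8, against 13.5% of all genes, of which 5 were among the 11 (Rpl27, Rpl41, Rplp0, Rplp1 and Rps27l) and Rpl13a (-0.89), Rps10 (-1.30) and Rps12 (-0.84) were added. The member median was then -0.38, with 78 of 81 negative. Among the highest members, Rpl24 turned from 0.54 to -0.74, Rps9 from 0.42 to -0.18, Rps3 from 0.41 to -0.09 and Rps20 from 0.26 to -0.29, and Rps3a1 went from 0.51 to 0.09. Without LSK PBS library 1 the count was 6, 7.41% of members against 13% of all genes. Without LSK PBS library 3 it was 37, 45.7% of members against 13% of all genes. Without LK PBS library 1, 2 or 3 it was 1, 4 and 3, against 7.77%, 8.47% and 10.3%, and without LSK IL-1β library 1 it was 19, against 14.6%. So whether the members' share lay above or below that of all genes changed with the library left out.

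Some genes of the nucleolus and of related lists were also called lower in LSK cells. Of 12 RNA polymerase I and nucleolar genes 6 were called lower (Nolc1 at -0.99, Nop56 at -0.84, Rrn3 at -0.69, Nop58 at -0.62, and Polr1b and Dkc1 at -0.55), with a median of -0.55. Of 6 snoRNA hosts 4 were lower (Snhg1, Snhg5, Snhg8 and Snhg12, from -1.36 to -0.94), with a median of -1.02. Fau (-0.72), Npm1 (-0.63) and Bccip (-0.68) were the genes called in the proteins with other names, the TOP mRNAs and the chaperones, whose medians were -0.70, -0.25 and -0.23. Among upstream regulators Mycn was higher in LSK cells (3.55, edgeR adjusted p = 8.41e-06), and Eif4ebp1 (-1.04, 0.00591) and Rps6kb1 (-0.56, 0.0423), targets of mTOR, were lower (median -0.05). Of 12 p53 targets 3 were higher (Cdkn1a, Trp53inp1 and Pmaip1) and 3 lower (Ccng1, Zmat3 and Aen), with a median of -0.15. Of 77 mitochondrial ribosomal protein genes 41 were called lower and 0 higher (0 higher at an unadjusted p under 0.05 and by DESeq2), with a median of -0.69. The medians with a TOP start, without and with no entry were -0.46 (5 called), -0.31 (4) and -0.41 (2) among the members. They were -0.41 (3), -0.34 (4) and -0.35 (1) without LSK PBS library 2. Called lower were then 5 nucleolar genes, 4 snoRNA hosts, 2 TOP mRNAs, 3 chaperones, 4 p53 targets (with 4 higher) and 51 mitochondrial ribosomal protein genes, while Fau (-0.61), Dkc1 (-0.49), Aen (-0.66) and Rps6kb1 (-0.40) were no longer called. The medians of the TOP mRNAs, the chaperones and the p53 targets went to -0.16, -0.47 and -0.36, and that of the upstream regulators turned to 0.05.

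Markers differed between the fractions. All 9 stem cell genes (median 3.75) and 3 megakaryocyte genes were called higher in LSK cells, and all 8 erythroid genes (median -3.47) and 5 of 6 granulocyte-monocyte progenitor genes (median -1.69) lower. In the other lists 1 of 6 neutrophil genes was lower, and 1 of 2 lymphoid, 1 of 2 mesenchymal (Pdgfrb) and 2 of 7 macrophage genes (Lyz2 and Ptprc) were higher. Leaving out LSK PBS library 2 made it 4 of the granulocyte-monocyte progenitor genes, with the other counts as before. Summed levels per library stand with the treatment comparison of each population. The ribosomal protein values of a fraction are averages over its cell types, whose part in them was not tested.

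With IL-1β the populations were again compared, to see whether the ribosomal protein genes still differed. The members spread to both sides. Of 81, 47 were positive and 34 negative, with a median log2 fold change of 0.13 against -0.01 over all genes. By edgeR 0 members were called higher, against 2.13% of all genes, and 0 lower, against 2.27%. Unadjusted, 8 were higher and 6 lower at p under 0.05, against 10.9% of all genes in each direction, and DESeq2 called 1 in each direction, against 4.73% higher and 4.93% lower. Of all genes, edgeR called 295 higher against 314 lower, a split that became 394 against 247 under upper-quartile factors. The lowest included Rpl31 (-1.78 ± 0.67), Rpl17 (-1.47 ± 0.49), Rps25 (-1.21) and Rpl9 (-1.14), with edgeR adjusted p from 0.114 to 0.2. Rpl31 stood at 117 and 205 CPM in LSK and 567 and 534 in LK cells. The populations were far apart in these 4 libraries. The highest were Rps9 (0.99 ± 0.41), Rps3a1 (0.95), Rps20 (0.94), Rps3 (0.91) and Rpl36a (0.84 ± 0.25), with edgeR adjusted p from 0.083 to 0.201. Rps9 stood at 3064 and 4162 CPM in LSK and 1866 and 1777 in LK cells. Rps20 stood at 1566 and 2102 against 977 and 939 CPM. In both the LSK libraries were the higher.

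These counts of 0 rested on LSK PBS library 2, which is not among the libraries compared but adds to the spread that the fit shares. Without it 6 members were called higher, against 6.75% of all genes, and 5 lower, against 6.95%, both like the background. The higher were Rps20, Rps9, Rps3a1, Rps6, Rpl36a and Rps3 (edgeR adjusted p from 0.0131 to 0.0448) and the lower included Rpl31 (0.00925), Rpl17 (0.0179), Rpl29 (0.0204) and Rps25 (0.0369), with fold changes as before. Leaving out LSK PBS library 1 gave 1 higher, against 1.94% of all genes, and leaving out library 3 gave 1 lower, against 2.16%. No filter on low counts gave 6 higher and 10 lower, against 2.98% and 2.89%, where the members' shares were the larger (7.32% and 12.2%). The direction of the member median rested on LSK IL-1β library 2, without which it was -0.24. Among the linked lists Mycn (2.68, edgeR adjusted p = 0.00191) and Cdkn1a (1.78, 0.0113) were called higher in LSK cells. The remaining lists had 0 called, with medians of -0.04 for proteins with other names, 0.16 for TOP mRNAs, -0.41 for snoRNA hosts, 0.29 for chaperones, -0.13 for nucleolar and -0.08 for mitochondrial ribosomal protein genes. At an unadjusted p under 0.05 edgeR gave 0, 2 higher, 1 lower, 1 higher, 1 in each direction, and 3 higher and 4 lower in these lists, and DESeq2 called 2 TOP mRNAs higher and 2 mitochondrial genes lower. With LSK PBS library 2 left out, edgeR called 3 TOP mRNAs, 1 chaperone and 1 nucleolar gene higher and 4 mitochondrial genes in each direction, and the p53 targets had 2 higher and 1 lower. Of the markers, 6 of 9 stem cell, 3 of 3 megakaryocyte and 1 of 2 lymphoid genes were called higher and 6 of 8 erythroid and 2 of 6 neutrophil genes lower. Of 6 granulocyte-monocyte progenitor genes 0 were called (5 lower at an unadjusted p under 0.05, 1 by DESeq2), nor was any of 2 mesenchymal or 7 macrophage genes (1 higher in each at an unadjusted p under 0.05 and 1 by DESeq2). In the fit that leaves out LSK PBS library 2, 7 stem cell genes and 1 mesenchymal gene were called higher and 8 erythroid and 2 granulocyte-monocyte progenitor genes lower. Their part in the ribosomal protein values was not tested.

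An interaction term over the 10 libraries tested whether IL-1β acted differently on the ribosomal protein genes of the LSK and LK fractions. Most members had a higher log2 fold change in LSK than in LK cells, but none passed. Of 81, 71 were positive and 10 negative, with a median difference of 0.45 against -0.12 over all genes. By edgeR's quasi-likelihood test 0 members were called higher, against 0.00723% of all genes, and 0 lower, against 0.0217%, so almost nothing was called at all. Unadjusted, 6 were higher and 0 lower at p under 0.05, against 4.68% and 9.54% of all genes, and DESeq2 called 0 in either direction, against 0.809% and 1.59%. The highest were Rpl41 (1.28 ± 0.43), Rpl36a (1.01 ± 0.32), Rpl38 (0.97 ± 0.40), Rpl36 (0.95 ± 0.38) and Rps21 (0.84 ± 0.44), with edgeR adjusted p from 0.225 to 0.405. For Rpl41 the LSK libraries stood at 379.5, 748 and 869 CPM with PBS against 1013 and 1528 with IL-1β, and the LK libraries at 1389, 1108 and 1289 with PBS against 996 and 991 with IL-1β. IL-1β libraries were thus the higher in LSK and the lower in LK cells, without overlap in either. The lowest included Rpl31 (-0.84 ± 0.84, edgeR adjusted p = 0.689), Rpl17 (-0.51), Rpl9 (-0.23) and Rpl24 (-0.20).

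Without LSK PBS library 2, 1 member was called in the interaction, against 1.23% of all genes. It was Rps20 (1.23 ± 0.27, edgeR adjusted p = 0.0456), at 685 and 872 CPM in the remaining LSK PBS libraries, 1865 in the library left out, 1566 and 2102 with IL-1β, and 1051, 858, 951, 977 and 939 CPM in the LK libraries. Unadjusted, 21 were then higher and 2 lower at p under 0.05, against 10.1% and 13.5% of all genes, with a member median of 0.40. Rpl31 went to -1.30, Rpl17 to -0.88 and Rpl9 to -0.59, and Rpl24 turned from -0.20 to 1.11. With all libraries, no filter on low counts called 3 higher, 3.66% of the members against 0.707% of all genes. In the linked lists and the marker lists edgeR called 0 genes with all libraries. Once LSK PBS library 2 was left out it called higher 1 TOP mRNA, 1 chaperone, 1 nucleolar gene, 1 p53 target, 7 mitochondrial ribosomal protein genes and 1 erythroid gene, and 2 stem cell genes lower. Medians were 0.55 for proteins with other names, 0.36 for TOP mRNAs, 0.72 for snoRNA hosts, 0.67 for chaperones, 0.49 for nucleolar genes, -0.12 for upstream regulators and 0.04 for p53 targets. At an unadjusted p under 0.05 these held 0, 3, 0, 1, 2, 0 and 1 genes higher and 1 p53 target lower, and DESeq2 called 1 TOP mRNA higher and 1 p53 target lower. Of 77 mitochondrial ribosomal protein genes 75 were positive, with a median of 0.57 (18 higher at an unadjusted p under 0.05, 2 by DESeq2). The stem cell markers had a median of -0.81 (5 lower at an unadjusted p under 0.05, 2 by DESeq2) and the granulocyte-monocyte progenitor markers of 0.87 (2 higher, 1 by DESeq2). The latter was 0.57 without LSK PBS library 2, where the upstream regulators had -0.22 and the p53 targets 0.09. The markers' part in the ribosomal protein values was not tested.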

How the data were processed

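The authors deposited counts of read pairs per gene for 14 libraries, without normalization. Per the submitters' processing notes and the file headers, reads were trimmed with fastp 0.20.0, aligned to GRCm38 with HISAT2 2.0.1 and SAMtools 1.10 and counted with featureCounts 2.0.2 in reverse-stranded mode on Ensembl genes, which left out pairs with several positions or genes. Libraries were depleted of ribosomal RNA. Symbols came from GENCODE M21 for 55227 of 55487 identifiers. The header of the MSC table names a further IL-1β library, not analysed here.

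Tests used edgeR 4.0.16 under R 4.3.3 (filterByExpr, TMM, estimateDisp, glmQLFit and glmQLFTest, both robust where offered), within each population or over all 10 LSK and LK libraries. The SE is the log2 fold change divided by the root of its F statistic. The code was tested on simulated data. Shares were compared by exact permutation (scipy 1.17.1). Totals ranged from 4393233 to 30871055. No library duplicated another of the same group (lowest chi-square per degree of freedom 4.91), and pairs across groups were not checked. The LSK and LK fits reported first used no pairing, and the numbers in the labels entered only the fits with a replicate block. Deviations of same-numbered LSK and LK libraries from their group means correlated across genes with r of 0.211, 0.128 and 0.472 with PBS. With IL-1β r was 0.100, at the limit of 0.1 used for pairing. With 2 libraries per IL-1β group the deviations mirror each other, so both IL-1β pairs give this same number. Among PBS libraries number 2 was not set apart by r, since LSK PBS library 2 correlated more with LK PBS library 1 (0.162). LSK PBS library 1 with LK PBS library 2 gave 0.124. Whether the numbers pair the libraries is thus uncertain.

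Genes were named by a rule: the 5 highest and 5 lowest members of each comparison, called members (the 5 lowest p in full), stalk, Mdm2-binding, anemia and paralog genes, the 3 highest and lowest levels per kb, untested members, and called or extreme genes of lists. Rps3, Rps9 and Rps20 beside LSK PBS library 2, Rpl36 and the members apart were named after their values were seen. The lists were ribosomal proteins with other names, other TOP mRNAs, snoRNA hosts, chaperones, RNA polymerase I and nucleolar genes, upstream regulators, p53 targets, mitochondrial ribosomal proteins, pseudogenes (summed) and markers of 8 cell types. The members and lists were chosen with earlier results of these data known. Results of some genes that the rule names are not reported here. Alternatives were DESeq2 1.42.0, its size factors, upper-quartile factors, TMM without the members, other filters, no fold threshold, the replicate block, a joint fit and each library left out. Figures were drawn with matplotlib 3.10.9.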

Additional observations from a re-analysis of the deposited data

How the results depend on the processing

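The counts of called members depended on the tool, the filter and single libraries. In LSK cells the count higher was 0, and 1 with DESeq2 (3.18% of all genes), 1 with no filter (1.67%), 4 with the replicate block (2.39%, beside 4.94% of members), 1 in the joint fit (3.95%) and 0 to 1 with a library left out. In LK cells the count lower was 0, and 1 with upper-quartile factors (3.04% of all genes), 1 with no filter (3.12%), 3 without the fold threshold (3.09%) and 1 with the replicate block (6.77%). In MSC the count lower was 16, and 37 with DESeq2, 35 with upper-quartile factors, 28 with no filter and 0 to 57 with a library left out. Between LSK and LK cells with PBS the count lower was 11, and 24 with DESeq2, 38 with no filter, 24 with the replicate block, 27 with the block within treatment (chosen after seeing the data) and 1 to 37 with a library left out. With IL-1β the count higher was 0, and 1 with DESeq2, 6 with no filter and 0 to 6 with a library left out, and the count lower was 0, and 1 with DESeq2, 10 with no filter, 1 with the block within treatment (2.75% of all genes) and 0 to 5 with a library left out. The interaction gave 0 higher, and 3 with no filter and 0 to 1 with a library left out. The replicate block changed no other count of members by over 1.5 times. The median of members between LSK and LK cells with IL-1β ran from -0.24 to 0.28 with a library left out and was reversed without LSK IL-1β library 2. The cause was not tested. Of the alternative values of called members 304 kept their call, 81 lost it and 0 reversed. Members that were not called did change sign, as between LSK and LK cells with PBS, where 11 were positive and 3 without LSK PBS library 2.

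Over all genes the alternatives called 3 to 547 higher and 0 to 681 lower in LSK cells (42 and 41 as reported), 61 to 1499 and 5 to 910 in LK cells (869 and 330), 38 to 2038 and 0 to 1781 in MSC (945 and 570), 1677 to 2771 and 1064 to 2379 between populations with PBS (2678 and 1716), 20 to 920 and 69 to 947 with IL-1β (295 and 314) and 0 to 170 and 0 to 228 for the interaction (1 and 3). PBS and IL-1β libraries share only a number, since same-numbered libraries had deviations with r of 0.126 and -0.0350 in LSK and -0.102 and 0.0333 in LK cells. No paired analysis was possible in MSC because the treatments share only number 2. Rpl24, Rpl36al and Rps10 had few counts, which limits the precision of their values.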
